A study of Mus musculus with 7 samples.

Results

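Voltage-gated sodium and calcium channels and the potassium channels set how nerve, muscle and glial cells fire and repolarize. Their genes were followed here in the contused spinal cord of mice with and without the clock gene Bmal1, also called Arntl. Members were the protein-coding genes named Kcn (Kcnj8 and Kcnj10 not included), Cacna1 (Cacna1s not included) or Scn with a number and the letter a, with a mean of at least 10 counts over the 7 libraries. The name rule gave 111 of the 21965 genes in the table. The count limit kept 100 of them as members and left 11 out, Kcnj1, Kcnmb3, Kcna7, Kcnk15, Kcnv2, Kcna10, Kcne1, Kcne2, Kcnk16, Kcnk7 and Kcng3. The member nearest to the limit was Kcnk18 with a mean count of 11.1, and the gene just under it was Kcng3 with a mean count of 8.29.

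RNA came from a 5 mm cord segment around a moderate T9 contusion, taken at dpi 3 from young adult mice. The first group was 3 mice (2 females, 1 male) of the Bmal1-/- line B6.129-Arntltm1Bra/J, a germline knockout. The second was 4 C57BL/6 WT mice (2 females, 2 males), of which 1 was a littermate of the knockouts, so for the others genotype and source of the mice cannot be told apart. All 7 mice were injured, each gave 1 library, and no uninjured cord was sequenced, so the values compare genotypes after injury only. Replicates 1 and 2 of both genotypes were the females, and values are given in replicate order throughout.

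The libraries held 38529644 to 44096737 counts. Arntl itself had 949, 1041 and 887 counts in the Bmal1-/- labelled libraries and 576, 594, 476 and 532 in WT, higher under the knockout label (log2 fold change 0.77, edgeR adjusted p = 0.0155). Counts per gene do not separate exons and cannot show whether the targeted exon was missing, so each direction below rests on the labels. The first principal component of all genes (48.6% of the variance) had the genotypes on opposite sides of 0, with WT 3 (51.4) and Bmal1-/- 3 (-48.6) at its ends. The second (26.3%) had WT 1 and WT 2 (both -32.4) at one end and WT 3 (36.9) at the other. Results that rest on these libraries are given with and without them.

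Sodium channel alpha subunits carry the upstroke of the action potential, calcium channel alpha1 subunits couple firing to calcium entry, and the potassium channels oppose both. In the cord, Scn8a and the Kv1 genes Kcna1 and Kcna2 are known from nodes of Ranvier and the adjacent axon, the Kv3 genes from fast-firing neurons, and Kcnk1 and Kcnj16 from glia. Scn10a, Scn11a and Kcnk18 are known from sensory neurons of the dorsal root ganglia, which lie outside the cord but send their axons into it. Scn4a is the channel of skeletal muscle, Kcnmb1 belongs to smooth muscle, and Kcnn4 is found in blood and immune cells. In bulk RNA, fewer cells of a type and less RNA per cell cannot be told apart.

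No member passed an adjusted p of 0.05 in edgeR's quasi-likelihood test of genotype. The test was run on 99 members, since Kcnk18 did not pass the filter on low counts. Over all 15743 genes tested 1.57% were called. At an unadjusted p under 0.05, 11 members (11.1%) were higher in the Bmal1-/- labelled libraries beside 8.64% of all genes, and 10 (10.1%) were lower beside 12.2% of all genes. The median log2 fold change was 0.19 over the members, 67 above and 32 below 0, and -0.0057 over all genes tested.

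Positive fold changes outnumbered negative ones in each role but the sodium channel alpha subunits, and single libraries set much of their size. WT 3 was the lowest of the 7 libraries in 76 of 100 members, where it was lowest in 35.9% of all genes tested. Bmal1-/- 3 was the highest in 46 members, beside 26.5% of all genes. These are both males. Among the females, on log2(CPM + 0.1), 39 members were higher and 60 lower in the Bmal1-/- labelled libraries, with a median difference of -0.06. Among the males, 1 library against 2, 81 were higher and 18 lower, with a median difference of 0.83. Over all genes tested the medians were -0.0025 in females and -0.0081 in males. The positive median of the channels was thus present in the male libraries and not in the female ones. The male comparison holds WT 3 and Bmal1-/- 3, and WT 1 and WT 2 are the whole female WT side. Sex therefore cannot be told apart from these single libraries. A test of genotype by sex was not made with a single male library under the knockout label.

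**Figure D1:**
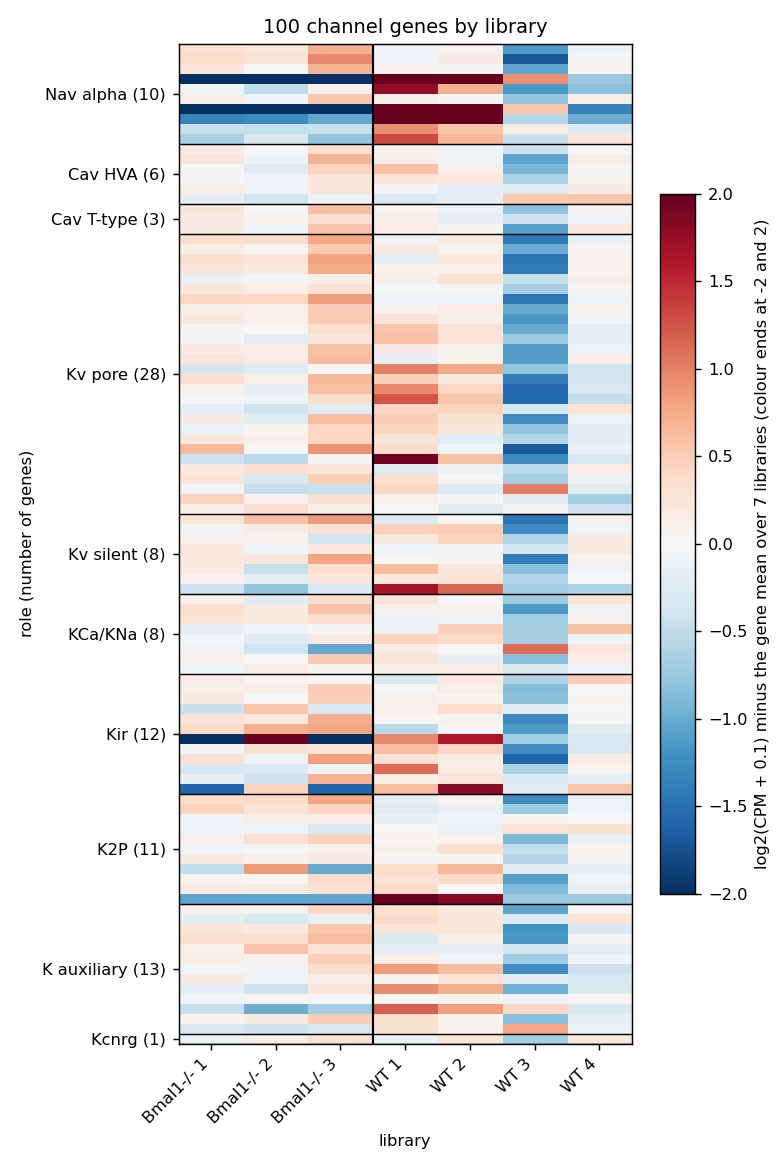
Heat map of the 100 channel genes (rows, grouped by role and ordered by mean level) in the 7 libraries (columns), coloured by log2(CPM + 0.1) minus the mean of that gene over all libraries, with colours ending at -2 and 2. The WT 3 column is blue for most genes (it is the lowest library in 76 of 100), and a few dark red cells in WT 1 and WT 2 belong to Scn10a, Scn11a, Scn7a, Kcnk18 and Kcnv1.

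Neuron markers shared the low values of WT 3 and the high values of Bmal1-/- 3, but not the pattern of the females. All 28 measured markers, among them Snap25 and Nefh, had a positive fold change, with a median of 0.51 on the log2 scale and 0 called. Their summed level was 11893 to 14458 CPM in the Bmal1-/- labelled libraries and 5899 to 11682 CPM in WT, lowest in WT 3. Among the females the marker sums were 12516 and 11893 CPM against 11133 and 11682 CPM. The summed levels of the members went the other way in females, at 3620 and 3495 CPM against 3809 and 3643 CPM. WT 3 was the lowest library in 27 of the 28. Without WT 3 the neuron marker median was 0.34 and that of the members 0.09, with 53 of 99 members above 0. Without WT 1 and WT 2 the member median was 0.54 and 84 of 99 were above 0. How much of the channel differences goes with the amount of neuronal RNA was not tested.

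The 23 members whose genotypes did not overlap with higher values under the knockout label were 23.2% of those tested, beside 13.4% of all genes. The 7 with lower values were 7.07%, beside 13.5% of all genes. With WT 3 left out, 3 members passed the adjusted threshold upward (Kcna1, Kcnj14 and Kcnk1; 1.86% of all genes tested) and 3 downward (Kcnip3 and Scn10a among them; 2.80% of all genes). With WT 1 and WT 2 left out, none passed it. At an unadjusted p under 0.05, 24 members were then higher beside 13.3% of all genes and 6 were lower beside 15.0%. DESeq2 called 3 members higher (Kcne1l, Kcnj14 and Kcnk1; 3.51% of all genes) and 5 lower (Kcnk18, Kcnmb1, Scn10a, Scn11a and Scn7a; 5.63% of all genes).

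**Figure D2:**
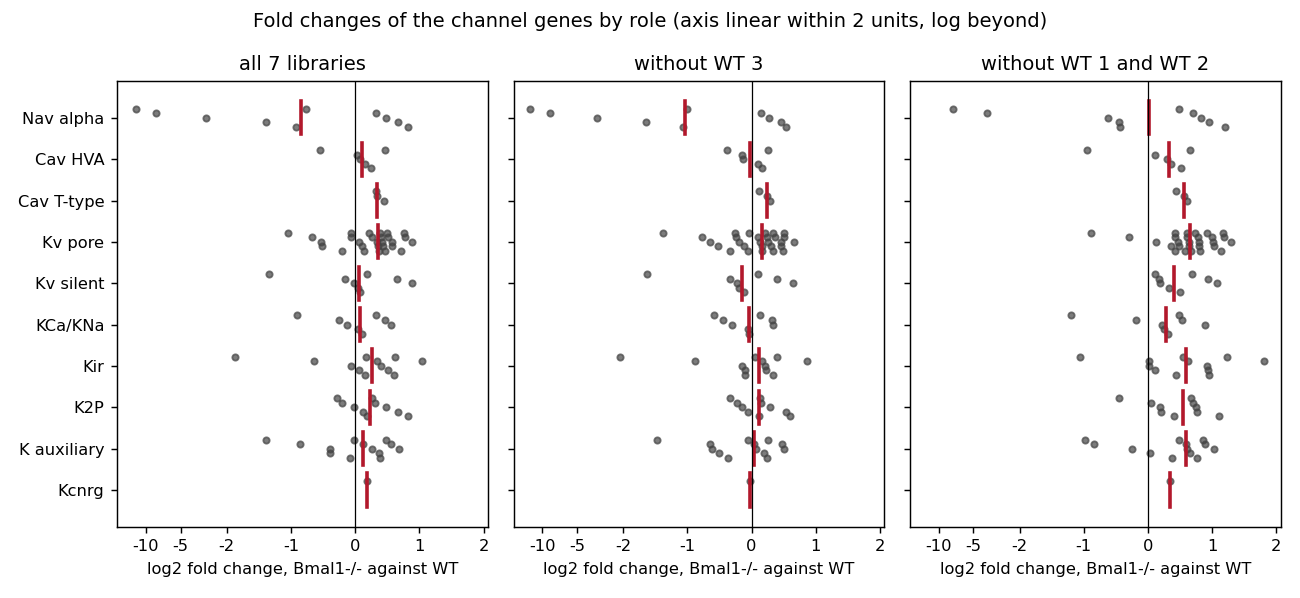
Log2 fold change of each channel gene tested (points; axis linear within 2 units and logarithmic beyond) by role, from edgeR on all libraries, without WT 3, and without WT 1 and WT 2, with the red bar at the median of the role. The Kv pore median was 0.36, 0.16 and 0.65 in the 3 panels, and the sodium channel median was -0.84, -1.03 and 0.02.

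The sodium channel alpha subunits split into 2 sets with opposite patterns. Of the 10 members, 4 had positive and 6 negative fold changes, and 0 were called. Scn8a, the main channel of mature nodes of Ranvier, was at 169, 162 and 225 CPM in the Bmal1-/- labelled libraries and at 130, 147, 62.5 and 130 CPM in WT. The genotypes did not overlap, and the gap between Bmal1-/- 2 and WT 2 was small beside the drop in WT 3. Its log2 fold change was 0.66 ± 0.28 (SE), with an edgeR adjusted p of 0.236, and 0.45 without WT 3. Scn1a, known from fast-spiking inhibitory neurons, was at 125, 120 and 191 CPM against 94.1, 110, 29.8 and 96.1 CPM. As in Scn8a, Bmal1-/- 3 was the highest and WT 3 the lowest library, with a log2 fold change of 0.82 ± 0.41 (edgeR adjusted p = 0.287). Scn2a, a channel of unmyelinated axons and axon initial segments, was at 47.1, 40.1 and 65.0 CPM against 42.2, 41.0, 19.5 and 42.6 CPM. Here the genotypes overlapped, and apart from Bmal1-/- 3 and WT 3 the libraries lay between 40.1 and 47.1 CPM.

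The sensory neuron channels Scn10a (Nav1.8) and Scn11a (Nav1.9) lie next to each other on the minus strand of chromosome 9 (GRCm38, chr9:119608456-119719322 and chr9:119753759-119825456). Scn10a had 0, 0 and 1 counts in the Bmal1-/- labelled libraries and 5925, 2770, 127 and 37 counts in WT, or up to 151 CPM. Scn11a had 5, 5 and 2 counts against 3166, 1523, 94 and 22 counts. Both genes were lower in every library under the knockout label than in any WT library, also within each sex, but most of the WT signal was in WT 1 and WT 2.

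Summed over the libraries, the Scn10a level in WT was 6839 times that under the knockout label, with a 95% counting interval of 1227 to 270140, from a total of 1 count. Against WT 3 and WT 4 alone the ratio was 251, with an interval of 44.4 to 9960. For Scn11a the ratio was 309 (177 to 599) against all WT libraries and 14.8 (8.14 to 29.4) against WT 3 and WT 4. These intervals cover counting error only. The spread among the WT mice was far wider, and edgeR gave adjusted p-values of 0.106 for Scn10a and 0.118 for Scn11a. Scn10a passed the threshold without WT 3 (adjusted p = 0.0472), with sex as a covariate (0.00811) and in DESeq2 (5.41e-07). Scn11a passed it with sex as a covariate (0.0132) and in DESeq2 (3.84e-06). The share of all genes called with sex as a covariate is not given here. Both genes reached the count limit for members only through their WT counts. Their low values under the knockout label are therefore described and not taken as independent support.

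Scn7a (Nax), a sodium-sensing relative found in sensory neurons and Schwann cells, followed the same libraries. It was at 2.62, 2.74 and 3.25 CPM in the Bmal1-/- labelled libraries and at 52.1, 32.4, 4.52 and 3.33 CPM in WT. Its log2 fold change was -3.01 ± 1.02 (edgeR adjusted p = 0.179), and -0.45 without WT 1 and WT 2. Scn9a (Nav1.7), the channel whose loss abolishes pain, was at 17.0, 12.6 and 19.0 CPM against 62.0, 29.5, 8.09 and 10.1 CPM. Only WT 1 and WT 2 lay above the Bmal1-/- labelled libraries, and the sign of its fold change turned with them, from -0.76 in all libraries to 0.83 without both. Exons of Scn9a lie under the antisense gene Gm13629, and the strand setting of the counting is not given in the sources used here. On the same chromosome, its direct neighbour Scn7a showed the excess in WT 1 and WT 2, and Scn1a, Scn2a and Scn3a did not.

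Kcnk18 (TRESK), a background potassium channel of sensory neurons, had 0 counts in the 3 Bmal1-/- labelled libraries and 51, 25, 1 and 1 counts in WT. Set against a floor of 3 counts over the knockout group, it was at least 20.1-fold lower there than in WT, and a 95% counting interval of the kind given for Scn10a began at 15.9-fold. WT 3 and WT 4 were themselves at or under that floor together, so no fold is given without WT 1 and WT 2. Kcnk18 too reached the count limit for members only through its WT counts. Its low values under the knockout label are therefore described and not taken as independent support. Kcnv1, a silent Kv subunit, was at 0.712, 0.534 and 0.761 CPM against 3.29, 2.29, 0.574 and 0.605 CPM. Kcnd1, an A-type channel gene, was at 19.2, 20.5 and 23.7 CPM against 48.9, 40.9, 14.2 and 18.6 CPM. In both, WT 3 and WT 4 lay within or below the range of the knockout label. These 2 genes were picked after their values were seen. Counting over all members, 5 were more than 1 log2 unit higher in WT 1 and in WT 2 than in each other library, namely Scn10a, Kcnk18, Scn11a, Scn7a and Kcnv1.

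Markers of dorsal root ganglion neurons were highest in the same libraries, and those of Schwann cells in part. A list of 25 ganglion markers, added after the channel values were seen, had 22 genes tested, 19 of them lower under the knockout label and 0 called. Its summed level was 942 to 1045 CPM in the Bmal1-/- labelled libraries and 599 to 1720 CPM in WT, and 21 of its genes were highest in WT 1. Avil, a defining marker, was at 0.839, 0.998 and 1.14 CPM against 100.3, 52.3, 4.22 and 1.82 CPM. The list median was -1.22 in all libraries and 0.37 without WT 1 and WT 2. Of the Schwann cell markers 10 of 11 were lower and 2 were called, with summed levels of 394 to 484 CPM against 521 to 870 CPM. Of the list, 8 genes were highest in WT 2, but the 2 called, Egr2 and Cdh19, did not stand out there: Cdh19 was highest in WT 4. The Schwann cell median was -0.89 in all libraries and still -0.56 without WT 1 and WT 2. The share of ganglion or root tissue in the segments was not measured, and its part in the sodium channel values was not tested.

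**Figure D3:**
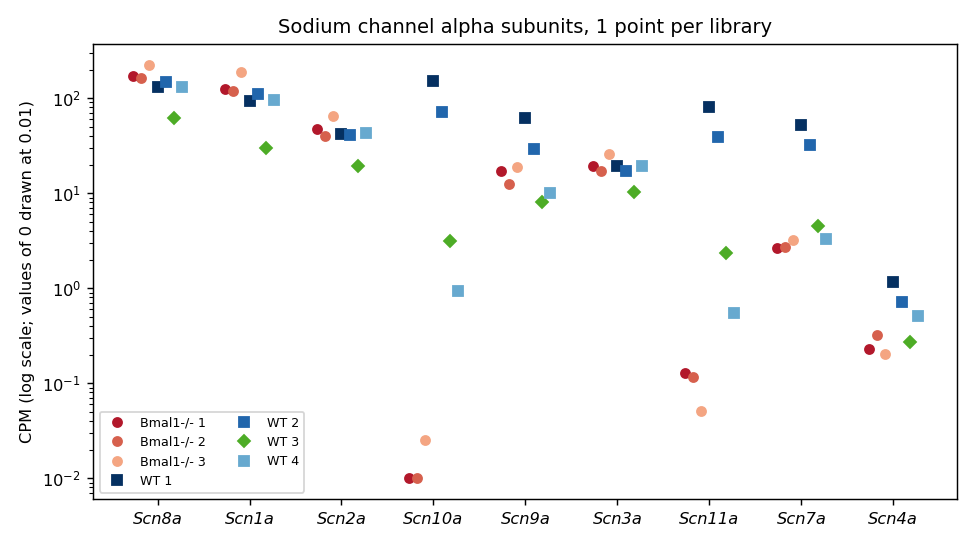
CPM on a logarithmic axis of 9 sodium channel alpha subunits, 1 point per library (values of 0 drawn at 0.01), ordered by mean level. For Scn8a, Scn1a and Scn2a the green WT 3 points are the lowest, while for Scn10a, Scn11a and Scn7a the dark blue WT 1 and WT 2 points stand above all others (151 and 71.2 CPM for Scn10a).

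Kv pore subunits were the largest role, with 28 members, all tested. Fold changes were positive in 21 and negative in 7, the median was 0.36, and 0 were called. Kcna2 and Kcna1 form the juxtaparanodal Kv1 channels that myelin covers. Kcna2 was at 266, 264 and 354 CPM in the Bmal1-/- labelled libraries and at 197, 235, 77.0 and 190 CPM in WT. Kcna1 was at 89.1, 89.6 and 120 CPM against 62.5, 64.0, 24.9 and 63.5 CPM. Neither gene overlapped between genotypes, so the order held in females as in males, and the WT libraries other than WT 3 were close together for Kcna1. The log2 fold change of Kcna1 was 0.89 ± 0.32 (edgeR adjusted p = 0.190), and without WT 3 it was 0.65 ± 0.12 (adjusted p = 0.0296). For Kcna2 it was 0.76 ± 0.34 (adjusted p = 0.255), and 0.51 without WT 3 (adjusted p = 0.0911).

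The third Kv1 gene of high level did not share the difference. Kcna6 was at 83.6, 88.7 and 102 CPM against 102, 114, 67.5 and 99.7 CPM, with a log2 fold change of -0.07. Kcnc1, a Kv3 channel that lets neurons fire at high rates, was at 120, 116 and 172 CPM against 109, 111, 38.6 and 106 CPM (log2 fold change 0.58, edgeR adjusted p = 0.349). Its genotypes did not overlap, and without WT 3 its fold change was 0.33.

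Among the silent subunits, which modify Kv2 channels, 5 of 8 had positive fold changes and 0 were called. Kcng4, at the highest level of the role, was at 52.0, 65.3 and 78.8 CPM in the Bmal1-/- labelled libraries and at 35.9, 43.3, 15.9 and 46.2 CPM in WT. The genotypes did not overlap, and the log2 fold change was 0.89 ± 0.34 (edgeR adjusted p = 0.209). Kcng4 is known from fast motor neurons.

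**Figure D4:**
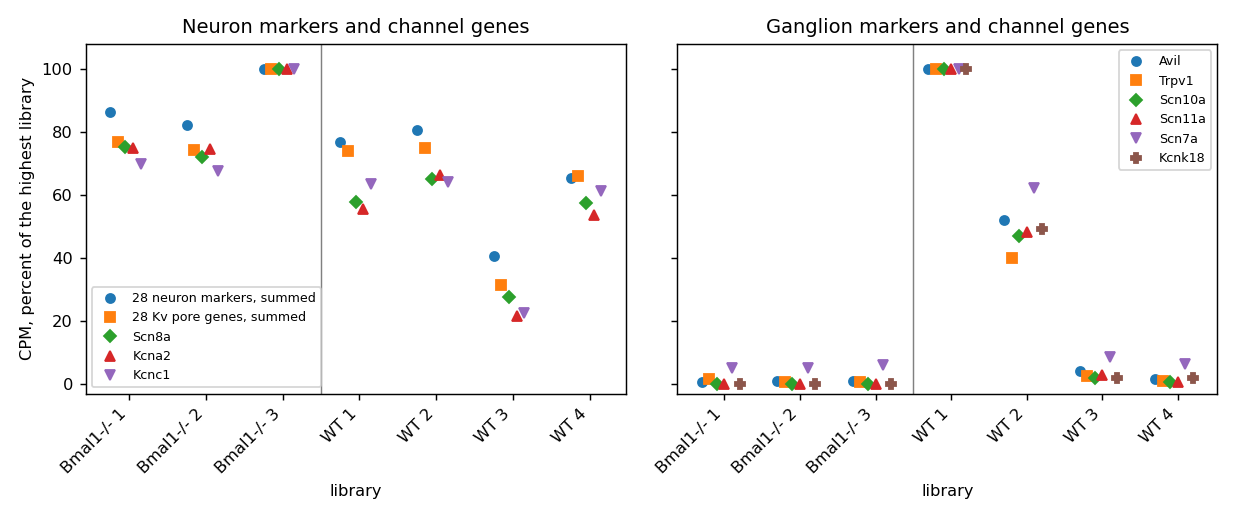
CPM as percent of the highest library, by library. Left, the summed neuron markers and Kv pore genes with Scn8a, Kcna2 and Kcnc1 are all lowest in WT 3 and highest in Bmal1-/- 3. Right, the ganglion markers Avil and Trpv1 and the channels Scn10a, Scn11a, Scn7a and Kcnk18 are each highest in WT 1.

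No calcium channel alpha1 subunit passed the adjusted threshold. Of the 6 high-voltage-activated members 5 had positive fold changes, with a median of 0.11, and all 3 T-type members did, with a median of 0.35. Cacna1a, the P/Q-type channel of most central synapses, was at 107, 93.1 and 118 CPM against 102, 89.9, 71.6 and 94.3 CPM. Cacna1b, the N-type channel of pain-conducting terminals, was at 48.0, 40.3 and 64.5 CPM against 71.1, 51.6, 25.1 and 45.8 CPM. Its genotypes overlapped widely, and its fold change of 0.07 turned to -0.14 without WT 3. The T-type channel Cacna1g was at 54.8, 46.5 and 70.7 CPM against 49.2, 43.4, 26.5 and 48.6 CPM, with a log2 fold change of 0.45 ± 0.23 (edgeR adjusted p = 0.298). Cacna1h, another T-type channel, was at 42.1, 39.5 and 47.1 CPM against 40.5, 33.2, 28.2 and 35.2 CPM. It was the calcium channel with the smallest unadjusted p (0.0359 in edgeR, adjusted p = 0.214), with a log2 fold change of 0.32 ± 0.13, and its genotypes overlapped through WT 1. Exons of Cacna1h lie under Tpsg1 on the other strand. Cacna1e, the R-type channel, had a log2 fold change of 0.46 ± 0.30 (adjusted p = 0.377). In every T-type gene WT 3 was the lowest library.

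Potassium channels that open with calcium or sodium were 8, with 5 positive and 3 negative fold changes and 0 called. Kcnt1, a sodium-activated channel of neurons, was at 122, 96.8 and 147 CPM against 135, 112, 69.5 and 134 CPM. Kcnn3, a small-conductance channel that shapes the afterhyperpolarization, was at 30.3, 28.4 and 31.3 CPM against 22.7, 23.0, 15.2 and 26.2 CPM. Its genotypes did not overlap, whereas those of Kcnt1 did. The log2 fold change of Kcnn3 was 0.46 ± 0.17 (edgeR adjusted p = 0.197), and 0.32 ± 0.08 without WT 3 (adjusted p = 0.0641).

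The 2-pore-domain channels set the resting potential. Kcnk1 (TWIK-1), which astrocytes share with neurons, separated the genotypes by a wide gap. It was at 90.5, 81.7 and 89.8 CPM in the Bmal1-/- labelled libraries and at 55.8, 60.9, 40.2 and 63.7 CPM in WT, with means of 87.3 ± 4.88 (SD, n = 3) and 55.1 ± 10.5 CPM (SD, n = 4). Each library under the knockout label lay above each WT library, in females and in males. The log2 fold change was 0.66 ± 0.15 with an edgeR adjusted p of 0.0811. Without WT 3 it was 0.54 ± 0.07 (adjusted p = 0.00975), and without WT 1 and WT 2 it was 0.75 (adjusted p = 0.134). DESeq2 called it with an adjusted p of 0.00224. The antisense gene Gm45875 overlaps its exons, so its counts are uncertain in that respect. Of 13 astrocyte markers, 8 were higher, 5 lower and 0 called. The genotypes did not overlap in 6 of those higher and in 1 of those lower (Aldh1l1). Summed levels were 17320 to 19701 CPM against 11518 to 16385 CPM, without overlap. Most of each sum was Gfap, at 10021 to 12657 CPM against 7457 to 10001 CPM. The part of astrocyte or neuron RNA in the Kcnk1 difference was not tested.

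Kcnk9 (TASK-3), an acid-sensitive background channel of neurons, was at 121, 122 and 164 CPM against 82.6, 99.1, 39.1 and 87.3 CPM. Again there was no overlap, with a log2 fold change of 0.82 ± 0.29 (edgeR adjusted p = 0.192) and 0.60 without WT 3 (adjusted p = 0.0560). Kcnk2 (TREK-1), at 16.3, 16.9 and 18.3 CPM against 18.3, 21.4, 12.3 and 17.5 CPM, did not differ beyond the spread of its libraries. Exons of Kcnk2 also lie under an antisense gene, A430027H14Rik.

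Inward rectifiers pass potassium near the resting potential. Of the 12 members, 9 had positive and 3 negative fold changes and 0 were called. Kcnj14 (Kir2.4), known from motor neurons, was at 13.6, 16.9 and 17.6 CPM against 7.07, 10.4, 4.64 and 8.93 CPM. The genotypes did not overlap and the means were 16.0 ± 2.14 (SD, n = 3) and 7.76 ± 2.48 CPM (SD, n = 4). With a log2 fold change of 1.05 ± 0.26 (edgeR adjusted p = 0.0988), it had the largest positive fold change of the members tested. Without WT 3 it was 0.87 ± 0.16 (adjusted p = 0.0335), and DESeq2 gave an adjusted p of 0.00298. The glial Kcnj16 was at 77.4, 71.6 and 68.1 CPM against 55.8, 79.0, 45.4 and 97.1 CPM, where the WT range enclosed all Bmal1-/- labelled libraries.

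Some rectifiers differed sharply between the libraries under the knockout label. Kcnj15 was at 0.712, 23.6 and 0.609 CPM against 6.61, 10.6, 2.07 and 2.70 CPM, and Kcnj13 at 0.0254, 0.418 and 0.0254 CPM against 0.485, 1.23, 0.225 and 0.454 CPM. Bmal1-/- 2 was far above the other 2 libraries of its group in both. Kcnj13 rested on few reads, with 1, 18 and 1 counts against 19, 48, 9 and 18, and Bmal1-/- 2 lay within its WT range. Kcnj15, Kcnk5 and Kcnj2 were highest of all libraries in Bmal1-/- 2. Exons of Kcnj15 and Kcnj13 lie under genes on the other strand, Gm49643 and Gigyf2. Fibroblast markers summed to 492, 2365 and 414 CPM in the same libraries and to 1675, 1986, 1364 and 1237 CPM in WT. Kcnj15, Kcnj13 and Kcnk5 were picked after their values were seen, and the part of fibroblasts or meninges in them was not tested.

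Auxiliary potassium channel subunits bind the pore and alter its gating or traffic. Of the 13 members, 7 had positive and 6 negative fold changes and 0 were called. Kcne1l, an X-linked single-pass subunit, was at 33.7, 47.1 and 38.1 CPM against 27.6, 28.1, 24.1 and 27.7 CPM. All libraries under the knockout label were above all WT libraries, and the WT libraries were close together, with means of 39.6 ± 6.81 (SD, n = 3) and 26.9 ± 1.86 CPM (SD, n = 4). With a log2 fold change of 0.56 ± 0.12, its edgeR adjusted p of 0.0740 was the smallest among the members, and it moved little without WT 3 (0.51) or without WT 1 and WT 2 (0.61). DESeq2 (adjusted p = 0.00128) and the fit with the trend in gene length and GC content removed (adjusted p = 0.0451) called it.

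Kcnab2, the most abundant auxiliary subunit and a partner of Kv1 channels, was at 263, 261 and 331 CPM against 306, 285, 120 and 242 CPM, with overlapping genotypes. Kcnip3, also known as DREAM, is a calcium-binding partner of Kv4 channels. It was at 57.2, 52.2 and 57.9 CPM against 84.1, 75.9, 54.2 and 77.6 CPM. WT 3 alone lay among the Bmal1-/- labelled libraries. The log2 fold change of Kcnip3 was -0.39 ± 0.14 in all libraries (edgeR adjusted p = 0.200) and -0.51 ± 0.06 without WT 3 (adjusted p = 0.00970).

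Kcnmb1, Scn4a and Kcnn4, members known from vessels, muscle and blood cells, had lower mean levels under the knockout label, and none passed the adjusted threshold. Kcnmb1, the smooth muscle subunit of the BK channel, was at 1.37, 0.928 and 1.17 CPM in the Bmal1-/- labelled libraries and at 4.54, 3.5, 2.6 and 1.54 CPM in WT. The genotypes did not overlap, WT 4 was nearest to the knockout label, and the log2 fold change was -1.40 ± 0.37 (edgeR adjusted p = 0.118). Without WT 1 and WT 2 it was -0.84 (adjusted p = 0.165), and DESeq2 called it (adjusted p = 0.00843). Of 13 pericyte and smooth muscle markers 10 were lower and 2 were called, with summed levels of 475 to 595 CPM against 827 to 1067 CPM. These sums were highest in WT 3. Kcnmb1 was instead higher in WT 1 and in WT 2 than in each other library, by at least 0.43 log2 units. The part of pericyte or smooth muscle RNA in the Kcnmb1 difference was not tested.

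Scn4a, the skeletal muscle channel, was at 0.229, 0.325 and 0.203 CPM against 1.17, 0.720, 0.275 and 0.504 CPM, where WT 3 lay among the Bmal1-/- labelled libraries. Its log2 fold change was -1.39 ± 0.51 (adjusted p = 0.197). Scn4a was also higher in WT 1 and in WT 2 than in each other library, by at least 0.50 log2 units. Of 18 skeletal muscle markers 15 were lower and 11 were called, with a median of -2.45. Summed levels were 81.4 to 85.4 CPM against 124 to 151 CPM, highest in WT 4. Most of each sum under the knockout label was Pvalb, 1 of the 3 markers that were higher there (log2 fold change 0.38). Pvalb was at 57.3, 52.5 and 58.0 CPM against 40.9, 50.4, 35.2 and 45.9 CPM. Muscle tissue lies outside the cord, and the part of muscle RNA in the Scn4a value was not tested.

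Kcnn4 (KCa3.1), a channel of macrophages, microglia and red cells, was at 6.48, 5.13 and 3.30 CPM against 7.60, 6.81, 14.9 and 7.97 CPM. The genotypes did not overlap, WT 3 was by far the highest, and the log2 fold change was -0.91 ± 0.34 (edgeR adjusted p = 0.203) and -0.59 without WT 3. Macrophage and monocyte markers were lower in 15 of 17, with a median of -0.44 and 0 called, and their sums were 8382, 6596, 14766 and 9781 CPM in WT and 7759 to 9064 CPM under the knockout label. Apart from WT 3, the WT sums enclosed those of the knockout label. Spp1 and Lyz2 made up most of these sums, with log2 fold changes of -0.11 and -0.20. Of the 17 markers, 5 were lower without overlap of genotypes and 0 were higher without overlap. Without WT 3 the marker median was -0.23. Red cell markers were lower in 7 of 7, with 1 called.

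**Figure D5:**
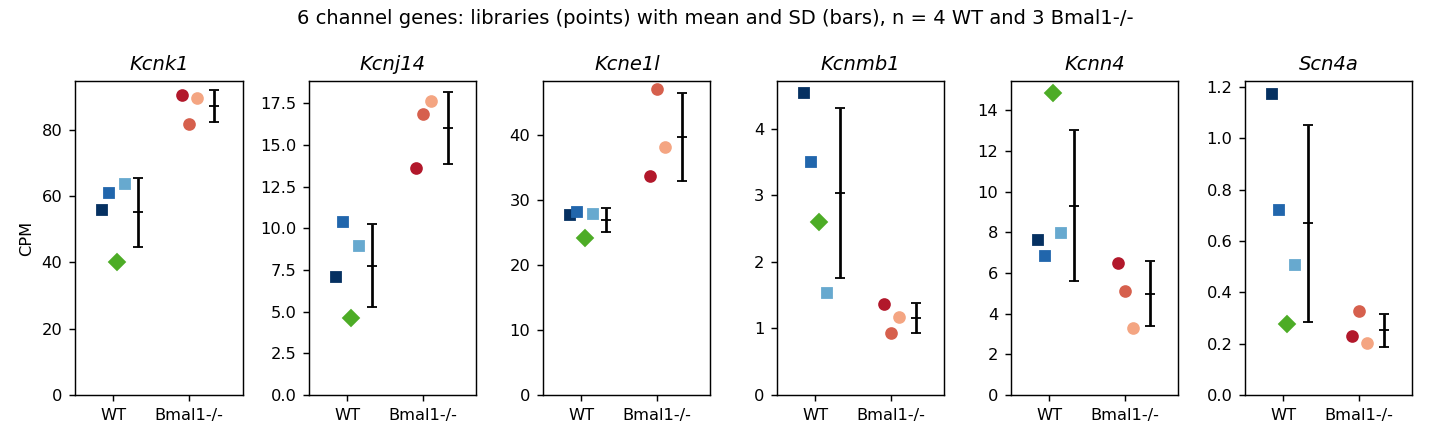
CPM of 6 channel genes by genotype on linear axes from 0, 1 point per library (green diamond, WT 3; dark blue squares, WT 1 and WT 2), with black bars for the mean and SD of 4 WT libraries and 3 Bmal1-/- labelled libraries. Kcnk1, Kcnj14 and Kcne1l do not overlap and are higher under the knockout label, Kcnmb1 and Kcnn4 do not overlap and are lower, and Scn4a overlaps through WT 3.

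Among other channels of macrophages and microglia, Kcnk6 (TWIK-2) was at 22.8, 22.4 and 19.6 CPM against 24.3, 21.9, 29.5 and 29.7 CPM, with a log2 fold change of -0.29 ± 0.13 (edgeR adjusted p = 0.254) and -0.46 without WT 1 and WT 2 (adjusted p = 0.121). It was highest in WT 3 and WT 4. Kcnk13 (THIK-1), the potassium channel of resting microglia, was at 29.9, 33.6 and 33.9 CPM against 27.8, 29.3, 32.0 and 30.6 CPM and varied little between libraries. Kcna3 (Kv1.3), an immune cell channel, was at 2.62, 2.88 and 2.72 CPM against 1.89, 2.08, 1.55 and 2.55 CPM, above WT without overlap but by a narrow gap to WT 4 (log2 fold change 0.44, adjusted p = 0.236). Kcnj2 (Kir2.1), at 11.8, 23.7 and 13 CPM against 17.1, 20.6, 13.8 and 16.0 CPM, overlapped between genotypes.

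Channel partners outside the name rule were counted in the same way. Of 20 auxiliary subunits of sodium and calcium channels 12 were higher and 8 lower, with a median of 0.28 and 0 called. The lowest were Cacng1 (-3.15) and Cacng6 (-1.18), gamma subunits known from skeletal muscle. All 7 measured HCN and NALCN genes, which carry pacemaker and leak currents, were above 0, with a median of 0.43 and 0 called. The genes of nodes of Ranvier and channel anchoring were above 0 in 19 of 21, with a median of 0.37, 0 called and 3 (Nfasc, Nrcam and Lgi1) at an unadjusted p under 0.05. WT 3 was the lowest library in 19 of these 21 genes.

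Levels were compared between genes per kb of exon, as the mean over all 7 libraries. Kcnab2 led at 46.3 ± 12.2 CPM per kb (SD, n = 7), followed by Kcnk1 at 30.8 ± 8.47. Further down were Kcne1l at 21.0 ± 5.17, Kcna2 at 19.0 ± 7.19, Kcnip3 at 18.5 ± 3.70 and Kcnj16 at 17.9 ± 4.25. Kcnab2 exceeded Kcnk1, and Kcnk1 exceeded Kcne1l, by more than either SD, while the levels from Kcne1l to Kcnj16 lay within 1 SD of each other. Among sodium channels, Scn1a was at 9.82 ± 4.29 and Scn8a at 9.30 ± 3.12 CPM per kb, while Scn10a averaged 4.06 with an SD of 7.35 because it was spread over libraries from 0 to its WT 1 level.

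BMAL1 pairs with CLOCK and binds E-boxes, of which the hexamer CACGTG is the canonical form. It was searched in RefSeq promoter windows (GRCm38.p6) from 250 bases before to 50 bases after each gene start. The hexamer reads alike on both strands. Windows were at hand for 72 of the 100 members, and 6 of them (8.33%) held the hexamer, beside 10.9% of the 12239 tested genes with a window and 8.09% of all 27025 genes with one. The windows around each hexamer are given 5′ to 3′ on the strand of the gene, with the hexamer in capitals, because these are the members where the letters that BMAL1 can bind are next to the start.
Kcne4 (chr1:78816830-78816889, plus strand): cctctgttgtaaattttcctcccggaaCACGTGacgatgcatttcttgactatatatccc
Kcnab1, first start (chr3:65108825-65108884, plus strand): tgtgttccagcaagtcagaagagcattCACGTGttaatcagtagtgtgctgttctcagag
Kcnab1, another start (chr3:65188031-65188090, plus strand): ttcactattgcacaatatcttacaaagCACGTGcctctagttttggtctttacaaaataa
Kcnn4 (chr7:24370103-24370162, plus strand): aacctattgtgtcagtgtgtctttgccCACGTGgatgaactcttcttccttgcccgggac
Kcnh4 (chr11:100759833-100759892, minus strand): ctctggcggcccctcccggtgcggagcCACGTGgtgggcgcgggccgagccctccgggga
Kcnj2 (chr11:111066053-111066112, plus strand): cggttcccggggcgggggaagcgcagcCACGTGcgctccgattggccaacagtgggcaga
Kcnk5 (chr14:20181733-20181783, minus strand): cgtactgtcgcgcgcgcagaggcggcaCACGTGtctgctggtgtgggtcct

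Of these 6 genes, Kcnn4 and Kcnh4 did not overlap between genotypes, in opposite directions. Their log2 fold changes were -0.91 for Kcnn4, 0.38 for Kcnh4, 0.49 for Kcnab1, -0.02 for Kcne4, -0.06 for Kcnj2 and -0.21 for Kcnk5, and none passed the adjusted threshold in edgeR. Kcne4, at 2.36, 2.55 and 2.44 CPM against 2.53, 2.60, 2.27 and 2.52 CPM, was nearly level in all libraries. Of the members with the smallest p-values, Kcne1l, Kcnk1, Scn10a, Scn11a and Kcnmb1 had a window without the hexamer. A match or its lack in this window is a description of letters and says nothing of binding.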

How the data were processed

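RNASeq of contused cord was made by the authors with stranded poly-A libraries (1 per mouse), Tophat2 alignment to GRCm38 and HTSeq counting per gene; the submitters' processing notes list FastQC 0.10.1 and HTSeq 0.10.0. The deposited values are raw counts, whole numbers without normalization. The annotation release and strand setting of the counting are not given in the sources used here, and 30 of 100 members have an exon under a gene on the other strand.

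Symbols, positions and exon lengths came from GENCODE M21, which matched 21939 of 21965 gene IDs; 3039 genes had no count. Counts were filtered with filterByExpr, normalized with TMM and tested with edgeR 4.0.16 (limma 3.58.1, R 4.3.3) by quasi-likelihood on genotype, with Benjamini-Hochberg adjustment over 15743 genes and a threshold of 0.05. CPM are counts scaled by library size and TMM factors. The SE printed with an edgeR fold change was calculated back from its test. It is the absolute log2 fold change divided by the square root of the F statistic, and adds nothing to the p-value. The libraries held 38529644 to 44096737 counts, and with a common dispersion of 0.0342 the spread between mice limits precision for all but the lowest genes. WT mice were bought or, for 1 of them, a littermate of the knockouts. The labels do not say which, nor which mice shared a litter or surgery day. The p-values set the genotype difference against the spread within each genotype of these 7 mice. Effects of source, litter or surgery day cannot be separated from that difference.

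The members and lists were chosen with earlier results of these data known. Genes named are the most abundant member of each role, the 10 smallest unadjusted p-values among further members without overlap of genotypes, and a list of members known for a cell type. Other members named belong to a count given or were chosen after their values were seen (Cacna1e, Cacna1h, Kcna6, Kcnd1, Kcnv1, Kcnj13, Kcnj15, Kcnk5, and those with an E-box). Alternatives were DESeq2 1.42.0, limma-voom, other size factors (RLE, upper quartile), looser and stricter filters (1 count in all, or 10 counts on average), a sex term, a replicate block, removal of a length and GC trend, each library left out in turn, and, added after seeing the data, WT 1 and WT 2 left out together. The methods were tested on simulated data. Promoter windows were RefSeq's. Kcn-named Kcnrg, a regulator rather than a channel, was kept by the name rule. Some genes that meet the naming rule are not reported here by name.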

Additional observations from a re-analysis of the deposited data

Results flagged for a closer look

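Among the 4 WT libraries, a gap test (Dixon, 95% level) was applied to 30 named channels, and chance alone marks about 1 in 20 such groups. It marked WT 3 in 5 of them. The channels share the same 4 libraries and some were chosen by their values, so the marks are not independent. Their number therefore cannot be set against that rate. WT 3 was far below the other WT libraries for Kcna1, with 24.9 CPM beside 62.5 to 64.0 CPM, for Scn2a, with 19.5 CPM beside 41.0 to 42.6 CPM, and for Kcnc1, with 38.6 CPM beside 106 to 111 CPM. Its Kcne1l level of 24.1 CPM was below 27.6 to 28.1 CPM by a smaller amount. For Kcnn4, the channel of blood and immune cells, WT 3 was far above, with 14.9 CPM beside 6.81 to 7.97 CPM. Kcna1, Scn2a, Kcnc1 and the summed neuron markers were lowest in this library, and the macrophage marker sum was highest in it.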

How the results depend on the processing

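The number of members called was 0 in both directions in edgeR, limma-voom and the normalization and filter alternatives. DESeq2 called 3 higher and 5 lower, sex as a covariate called 2 lower, and the removed length and GC trend left 1 higher. For the sex and trend fits the share of all genes called is not given here, so their counts have no comparison. Leaving out 1 library at a time gave 0 to 3 higher and 0 to 3 lower, the 3 and 3 coming without WT 3. Over these 7 fits the member median ran from 0.095 to 0.345. Of 32 named members 26 kept their sign under all 17 alternatives, and 8 passed 0.05 in at least 1. Signs turned for 6, with leave-one-out ranges of -0.060 to 0.26 for Kcnt1, -0.10 to 0.27 for Kcnj16, -1.07 to 0.027 for Scn9a, -0.14 to 0.32 for Cacna1b, -0.15 to 0.10 for Kcnk2 and -0.44 to 0.12 for Kcnj2. Without WT 1 and WT 2 Scn9a was at 0.83, Kcnk2 at 0.21 and Kcnj2 at 0.12, and Kcnk2 was at 0.012 in limma-voom and 0.025 with the trend removed. The cause was not tested.

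With a replicate block Kcnk2 was at 0.019, the member median was 0.28 and no member was called. The numbers do not pair the mice, since deviations of same-numbered libraries correlated at -0.17, 0.18 and -0.29. Depth limits Scn10a, Scn11a and Kcnk18 under the knockout label, where 0 to 5 counts were read per library.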
